A study of Mus musculus with 12 samples.

Results

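Sfrp1 and 9 further genes of the Wnt pathway (Wls, Fzd1, Fzd2, Fzd9, Lrp6, Ctnnb1, Axin2, Tcf7l1 and Dkk3) were followed across Cd38 genotypes in midbrain astrocytes. They are 10 of the 20614 genes measured and were picked by name, with their values in these libraries already known, so their differences between genotypes are a description: which of them passed a threshold is stated, but not as a test of these genes. Astrocytes were isolated with ACSA-2 magnetic beads, after removal of endothelial cells, myelin and CD11b-positive microglia, from tissue labelled midbrain of male mice aged 12 to 14 months. The study's description of the dissection names striatum and thalamus beside substantia nigra, so the tissue included forebrain. The libraries came from 3 Cd38+/+, 3 Cd38+/- and 6 Cd38-/- mice. The Cd38 deletion was present in every cell of the animal, not in astrocytes alone, and the beads enriched astrocytes without purifying them fully. Expression is given in TPM, a relative abundance scaled for transcript length and library total, so that levels can be set side by side between genes. Because TPM keeps no read number, the depth behind a value is unknown. In bulk RNA, fewer cells of a type and less RNA per cell cannot be told apart.

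Wnt proteins are secreted, lipid-modified ligands. They are carried out of the producing cell by Wls and bind Frizzled receptors together with the co-receptors Lrp5 and Lrp6. In the canonical branch, binding stops the destruction complex built on Axin and Apc, so that beta-catenin, the product of Ctnnb1, accumulates and works with Tcf and Lef factors on target genes. One target, Axin2, encodes a negative regulator of the same pathway. Sfrp1 is a secreted protein that holds Wnt ligands away from their receptors. In the midbrain the pathway is known for its role in the development of dopaminergic neurons, and astrocytes are among the cells that release Wnt ligands there.

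Cd38, the deleted gene, was measured at 125 ± 22.2 TPM (SD, n = 3) in Cd38+/+, 90.6 ± 0.231 TPM (SD, n = 3) in Cd38+/- and 15.7 ± 5.21 TPM (SD, n = 6) in Cd38-/- libraries, in the order of the labels. The summed level of 9 astrocyte markers was 10153 to 14728 TPM in Cd38+/+, 15428 to 17226 TPM in Cd38+/- and 11639 to 14788 TPM in Cd38-/-. For 6 oligodendrocyte markers it was 1295 to 7183 TPM in Cd38+/+, 3089 to 11008 TPM in Cd38+/- and 3173 to 17799 TPM in Cd38-/-. In Cd38-/- replicate 3 the oligodendrocyte sum, 17799 TPM, exceeded the astrocyte sum, 11639 TPM. The part of oligodendrocyte RNA in the differences below was not tested. The Cd38+/+ libraries stood apart in detection: 13160 to 13516 genes were above 0, against 16160 to 16327 in Cd38+/- and 15920 to 17906 in Cd38-/-. This difference follows genotype, so detection and genotype cannot be told apart in any comparison with Cd38+/+. Across all genes tested the median log2 fold change was 0.18 for Cd38+/- and 0.15 for Cd38-/- against Cd38+/+, and -0.02 between the mutant genotypes. Median-ratio scaling brought the first and second of these to 0.06 and 0.04. Fold changes of single genes below are to be read against these medians.

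Promoter sequence is shown for 3 genes: Wls, which carries Wnt ligands out of the cell and was a DEG in Cd38-/-, Wnt9a, a ligand that was a DEG in the same comparison, and Axin2, the target gene read as output of the canonical branch. A DEG, or differentially expressed gene, had a Storey q under 0.05 and a change of at least 1.2-fold. Each sequence is the 250 bases before the RefSeq transcript start on GRCm38.p6, in the direction of the gene, with CG dinucleotides in capitals. All 3 lie on the plus strand, Wls at chr3:159839400-159839649, Wnt9a at chr11:59306680-59306929 and Axin2 at chr11:108920099-108920348.
Wls: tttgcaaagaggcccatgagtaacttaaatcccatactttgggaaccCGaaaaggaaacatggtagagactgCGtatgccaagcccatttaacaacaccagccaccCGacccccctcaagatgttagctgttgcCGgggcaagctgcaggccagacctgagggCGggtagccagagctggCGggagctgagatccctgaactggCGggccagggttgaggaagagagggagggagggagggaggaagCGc
Wnt9a: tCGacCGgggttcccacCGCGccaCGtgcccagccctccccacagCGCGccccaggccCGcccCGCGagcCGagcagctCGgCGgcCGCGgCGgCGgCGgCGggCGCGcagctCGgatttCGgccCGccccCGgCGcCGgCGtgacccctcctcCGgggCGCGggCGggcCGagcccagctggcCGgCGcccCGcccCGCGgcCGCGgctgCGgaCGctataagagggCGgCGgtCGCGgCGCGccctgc
Axin2: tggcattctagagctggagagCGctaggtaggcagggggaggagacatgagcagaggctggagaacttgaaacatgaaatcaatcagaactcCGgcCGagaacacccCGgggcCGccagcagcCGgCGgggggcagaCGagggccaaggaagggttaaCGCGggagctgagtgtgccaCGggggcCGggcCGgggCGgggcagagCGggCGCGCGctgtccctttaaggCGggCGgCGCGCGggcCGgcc
The stretch before Wls held 8 CG dinucleotides and 58.0% G + C, that before Axin2 24 and 69.2%, and that before Wnt9a 48 and 84.4%. The median over all promoters of the same length was 6 CG dinucleotides and 52.4% G + C. RefSeq promoters were matched for 6 of the 10 genes (Axin2, Ctnnb1, Fzd1, Fzd9, Tcf7l1 and Wls). The Tcf/Lef core letters CTTTGAA, and the same 7 letters ending in AT, TA or TT in place of AA, were searched on both strands of the 300 bases from 250 before to 50 after each start. No window of these 6 genes or of Wnt9a held one of them, while 16.9% of all promoters of that length did. That share is not a like measure, since most of these stretches were richer in G + C than the median. Ctnnb1, Fzd9 and Tcf7l1 had 73.6% to 76.4%, and Fzd1 had 51.2%. Sites outside the 300 bases were not searched.

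Sfrp1 (chr8:23411502-23449632, plus strand, GENCODE vM21 on GRCm38), the secreted Wnt inhibitor, was the least abundant of the 10 genes in Cd38+/+ astrocytes and was several-fold higher in both mutant genotypes. Its level was 1.90, 0.07 and 2.36 TPM in the Cd38+/+ libraries. In Cd38+/- it was 18.4, 6.50 and 10.1 TPM, and in Cd38-/- the lowest library had 6.54, the median was 9.68 and the highest had 21.8 TPM. Every mutant library lay above every Cd38+/+ library, and the mutant genotypes overlapped. The mean was 1.44 ± 1.21 TPM in Cd38+/+ (SD, n = 3), 11.7 ± 6.13 in Cd38+/- (SD, n = 3) and 11.0 ± 5.55 in Cd38-/- (SD, n = 6), ratios of mean TPM of 8.09 and 7.65 to Cd38+/+. On the scale of log2(TPM + 1), which understates the change of low genes, Sfrp1 differed by 2.43 (SE 0.70) in Cd38+/- and 2.36 (SE 0.47) in Cd38-/- from Cd38+/+. Between Cd38-/- and Cd38+/- the difference was -0.07 (SE 0.36). Sfrp1 was a DEG in Cd38-/- against Cd38+/+. It was not one without Cd38-/- replicate 1 or without Cd38-/- replicate 2, whereas the log2 fold change there stayed at 2.34 and 2.15. Those fits had 112 and 74 DEGs among all genes, against 970 with every library. Sfrp1 passed the filter on low values, a mean above 5 TPM in at least 1 compared genotype, only through the mutant libraries, so a difference from Cd38+/+ was built into its passing.

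**Figure D1:**
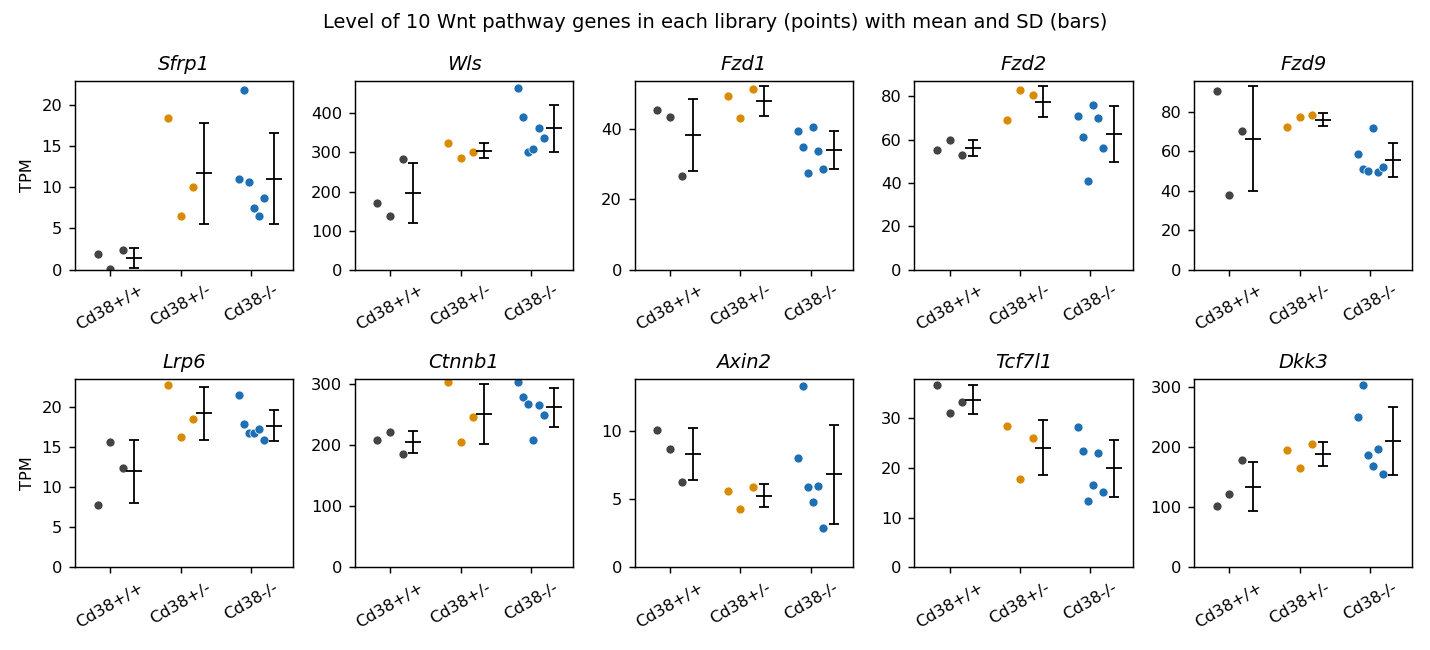
Level of each of the 10 genes in TPM (vertical axes from 0, scaled per gene) in 3 Cd38+/+, 3 Cd38+/- and 6 Cd38-/- libraries. Points are libraries, and the black bars beside them are the mean and SD. Sfrp1 sits at 0.07 to 2.36 TPM in Cd38+/+ and at 6.50 TPM or more in every mutant library, while Tcf7l1 sits lower in every mutant library than in Cd38+/+.

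The libraries with the most Sfrp1 also held the most choroid plexus RNA. The choroid plexus, the epithelium that makes cerebrospinal fluid, was followed by 4 markers (Ttr, Kl, Folr1 and Kcnj13). Their summed level was 289, 34.7 and 57.2 TPM in Cd38+/+, 7160, 437 and 140.3 TPM in Cd38+/-, and 179 to 1876 TPM in Cd38-/-. All 3 Cd38+/+ libraries had Kl at 0, and 2 of them also had Ttr and Kcnj13 at 0, while none of the 4 was at 0 in a mutant library. The sums of 34.7 and 57.2 TPM were thus Folr1 alone, whereas Ttr made up 6537 TPM of the sum of 7160 TPM. Cd38+/- replicate 1 and Cd38-/- replicate 2, with 18.4 and 21.8 TPM of Sfrp1, had the highest sums, 7160 and 1876 TPM. Over the 12 libraries, log2 values of the sum and of Sfrp1 had Pearson r = 0.77 and Spearman rho = 0.73, a description over libraries that share genotype and detection. For the other 8 marker lists Pearson r ran from -0.41 to 0.47. Without Cd38+/- replicate 1 the log2 fold change of Sfrp1 in Cd38+/- was 2.06. Within genotypes the order was not the same, since Cd38-/- replicate 5 had the second highest sum of its group, 1181 TPM, and the lowest Sfrp1, 6.54 TPM. The part of choroid plexus RNA in the Sfrp1 difference was not tested.

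**Figure D2:**
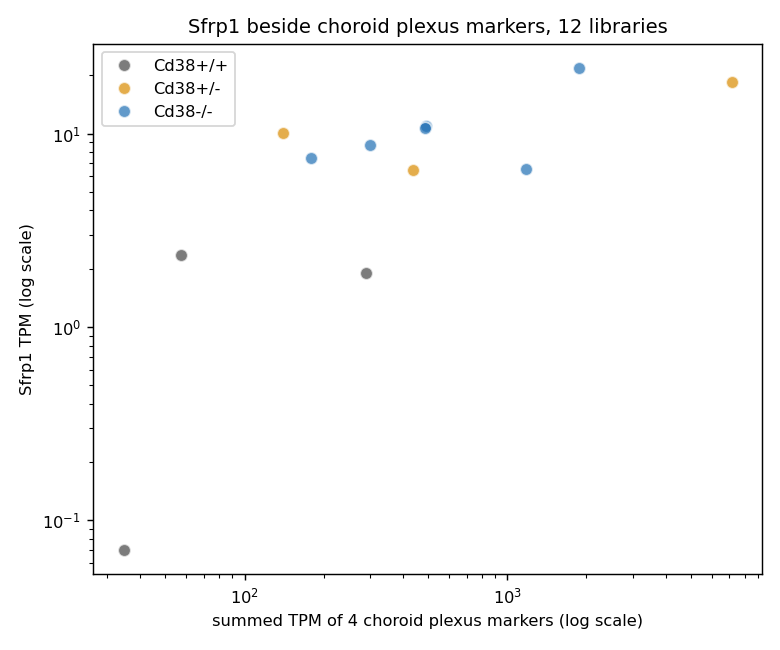
Sfrp1 in TPM against the summed TPM of 4 choroid plexus markers in the 12 libraries, both axes logarithmic, coloured by genotype. The Cd38+/- library at 7160 TPM and the Cd38-/- library at 1876 TPM of markers carry 18.4 and 21.8 TPM of Sfrp1, and all 3 Cd38+/+ libraries lie below the mutant libraries on the Sfrp1 axis.

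Within its own family Sfrp1 remained a minor transcript. Sfrp5, a related secreted Wnt inhibitor, accounted for 52.0% to 100% of the summed TPM of the family in each library. Sfrp1 made up 0.0205% to 0.607% of it in Cd38+/+, 2.06% to 6.56% in Cd38+/- and 1.86% to 6.80% in Cd38-/-. Sfrp5 was measured at 345 ± 16.8 TPM in Cd38+/+ (SD, n = 3), 278 ± 48.9 in Cd38+/- (SD, n = 3) and 257 ± 63.0 in Cd38-/- (SD, n = 6). Its log2 fold change was -0.33 (SE 0.16, limma q = 0.255) in Cd38+/- and -0.46 (SE 0.20, limma q = 0.101) in Cd38-/-, neither past the threshold. At the lowest share of Sfrp5, in Cd38-/- replicate 2, Frzb, another member of the family, reached 125 TPM. Frzb was chosen for mention after its values were seen.

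Dkk3 (chr7:112116017-112159057, minus strand) encodes a secreted protein of the Dickkopf family, whose classical members block the Lrp co-receptors. Its level was 102, 122 and 179.5 TPM in Cd38+/+, 196, 166 and 205 TPM in Cd38+/-, and 155 to 304 TPM with a median of 192 TPM in Cd38-/-. The ranges overlapped in every comparison, because the third Cd38+/+ library lay within both mutant ranges. Its log2 fold change was 0.52 (SE 0.22) in Cd38+/- and 0.64 (SE 0.23) in Cd38-/- against Cd38+/+. Dkk3 was not a DEG, but became one in Cd38-/- with all 12 libraries in 1 fit and without Cd38+/+ replicate 3. Those fits had 1822 and 3119 DEGs among all genes, against 970 with the main settings. Of the genes for these secreted proteins, Sfrp1 and Dkk3 had higher means in the mutants than in Cd38+/+, and Sfrp5 had lower ones.

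Wls (chr3:159839672-159938664, plus strand), the carrier of Wnt ligands through the secretory route, was among the most abundant of the 10 genes in each genotype and was the other DEG among them in Cd38-/-. It was measured at 171, 136 and 283 TPM in Cd38+/+ and at 324, 286 and 302 TPM in Cd38+/-. In Cd38-/- the lowest library had 302, the median was 349.8 and the highest had 466 TPM. No mutant library fell into the Cd38+/+ range, although the gap was narrow, 283 against 286 TPM, while the mutant genotypes overlapped. The mean TPM was 1.55-fold higher in Cd38+/- and 1.84-fold higher in Cd38-/- than in Cd38+/+. The log2 fold changes were 0.69 (SE 0.25) and 0.93 (SE 0.21), and 0.24 (SE 0.13) between Cd38-/- and Cd38+/-. Wls was no longer a DEG without Cd38-/- replicate 1, 2, 5 or 6. Those fits had 112, 74, 93 and 154 DEGs among all genes, against 970 with every library. Leaving out any 1 library kept its log2 fold change in Cd38-/- between 0.70 and 1.22.

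The 3 Frizzled genes, which encode membrane receptors for Wnt ligands, had their highest means in Cd38+/-. Fzd2 (chr11:102604396-102608058, plus strand) was measured at 55.3, 59.9 and 53.1 TPM in Cd38+/+, at 69.2, 82.7 and 80.6 TPM in Cd38+/-, and at 40.9 to 76.2 TPM (median 65.5) in Cd38-/-. The Cd38+/- libraries lay above all Cd38+/+ libraries, and the Cd38-/- range overlapped both genotypes. Its log2 fold change was 0.46 (SE 0.19) in Cd38+/- and 0.13 (SE 0.19) in Cd38-/- against Cd38+/+, and -0.33 (SE 0.17) between Cd38-/- and Cd38+/-.

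Fzd1 (chr5:4753839-4758035, minus strand) was measured at 45.3, 43.2 and 26.6 TPM in Cd38+/+, at 49.3, 43.0 and 51.5 TPM in Cd38+/-, and at 27.4 to 40.7 TPM (median 34.2) in Cd38-/-. Fzd9 (chr5:135248938-135251230, minus strand) was measured at 90.6, 37.8 and 70.6 TPM in Cd38+/+, at 72.4, 77.4 and 78.5 TPM in Cd38+/-, and at 49.6 to 72.1 TPM (median 51.4) in Cd38-/-. For both genes all 6 Cd38-/- libraries lay below all 3 Cd38+/- libraries, and the Cd38+/+ range overlapped each mutant range. Between Cd38-/- and Cd38+/- the log2 fold change was -0.49 (SE 0.14) for Fzd1 and -0.46 (SE 0.13) for Fzd9. Neither was a DEG, but with library quality weights Fzd1, Fzd2, Fzd9 and Tcf7l1 were DEGs between the mutant genotypes, and Fzd9 was one without Cd38-/- replicate 4. The weighted fit had 3120 DEGs among 11563 genes. The fit without Cd38-/- replicate 4 had 93, and the main settings gave 4. Against Cd38+/+ the values in Cd38-/- were -0.15 (SE 0.21) for Fzd1 and -0.18 (SE 0.24) for Fzd9, and in Cd38+/- they were 0.35 (SE 0.27) and 0.28 (SE 0.30). The sign for Fzd9 against Cd38+/+ turned under 3 alternatives in Cd38-/- and under 1 in Cd38+/-.

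Lrp6 (chr6:134446476-134566965, minus strand), the co-receptor of the canonical branch, was measured at 7.83, 15.7 and 12.4 TPM in Cd38+/+, at 22.8, 16.3 and 18.5 TPM in Cd38+/-, and at 15.9 to 21.5 TPM (median 17.0) in Cd38-/-. All 9 mutant libraries lay above the Cd38+/+ range, the lowest at 15.9 against 15.7 TPM. The log2 fold change was 0.68 (SE 0.38) in Cd38+/- and 0.57 (SE 0.25) in Cd38-/-. It was -0.11 (SE 0.14) between the mutant genotypes, whose ranges overlapped.

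Ctnnb1 (chr9:120929216-120960507, plus strand), which encodes beta-catenin, was measured at 208, 221 and 186 TPM in Cd38+/+, at 302, 204 and 245 TPM in Cd38+/-, and at 207 to 302 TPM (median 266) in Cd38-/-. The genotypes overlapped in every comparison. Its log2 fold change was 0.27 (SE 0.18) in Cd38+/-, 0.35 (SE 0.13) in Cd38-/- and 0.07 (SE 0.14) between the mutant genotypes. Ctnnb1 was not a DEG, but became one in Cd38-/- against Cd38+/+ without Cd38-/- replicate 4. That fit had 798 DEGs among all genes, against 970 with every library. The annotated gene overlaps Ulk4 on the opposite strand, and whether the counting used strand is not given in the sources used here, so reads of the overlap may be shared.

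Tcf7l1 (chr6:72626378-72789254, minus strand), a Tcf factor known mainly as a repressor of Wnt target genes, had the opposite order to Wls. It was measured at 36.8, 31.1 and 33.4 TPM in Cd38+/+, at 28.5, 17.8 and 26.1 TPM in Cd38+/-, and at 13.3 to 28.2 TPM (median 19.8) in Cd38-/-. Every mutant library lay below every Cd38+/+ library. The log2 fold change was -0.49 (SE 0.28) in Cd38+/- and -0.78 (SE 0.25) in Cd38-/-, and -0.28 (SE 0.24) between the mutant genotypes, which overlapped. It was not a DEG, but became one in Cd38-/- under median-ratio scaling and under quantile normalization. The same held without the filter on low values, with all 12 libraries in 1 fit, and without Cd38+/+ replicate 2 or 3. DEGs of all genes numbered 941 under median-ratio scaling, 1115 under quantile normalization and 1822 to 3119 in the others. With the main settings they numbered 970.

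Axin2 (chr11:108920349-108950783, plus strand), the target gene and negative regulator, was measured at 10.1, 8.68 and 6.23 TPM in Cd38+/+, at 5.62, 4.30 and 5.86 TPM in Cd38+/-, and at 2.85 to 13.3 TPM (median 5.93) in Cd38-/-. The Cd38+/- libraries lay below all Cd38+/+ libraries, and the Cd38-/- range covered both. The log2 fold change was -0.56 (SE 0.47) in Cd38+/- and -0.35 (SE 0.41) in Cd38-/-, and 0.21 (SE 0.34) between the mutant genotypes. The sign in Cd38-/- against Cd38+/+ turned under 2 alternatives, both with the replicate number as a block. Antisense genes are annotated over Axin2 and Tcf7l1, so the same limit of strand applies as for Ctnnb1.

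**Figure D3:**
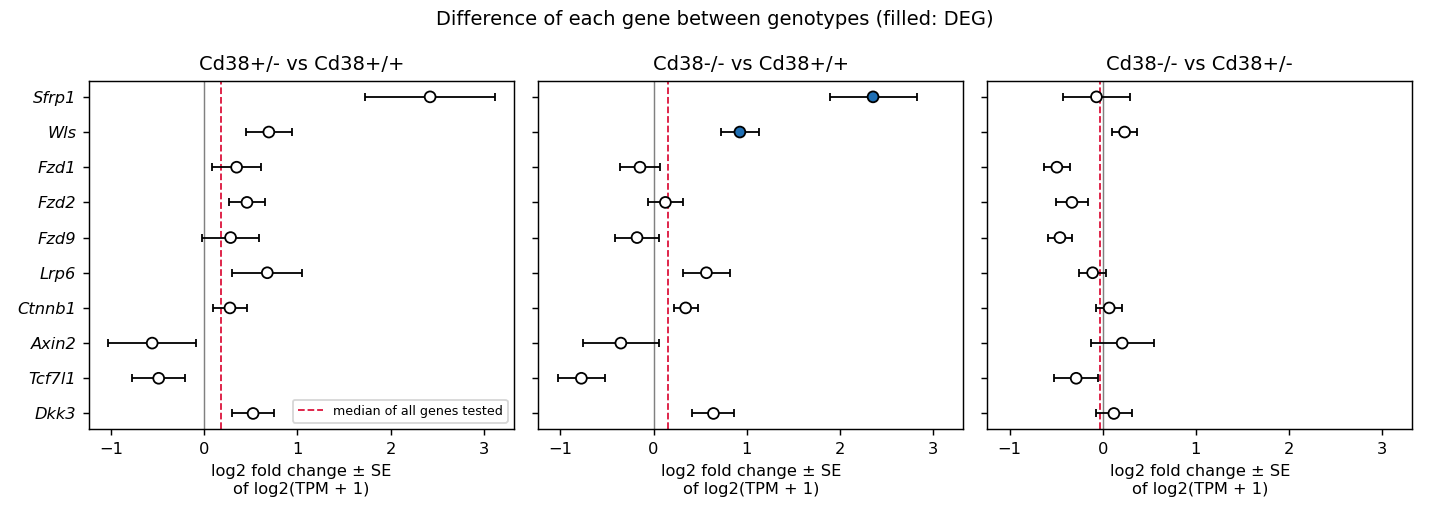
Log2 fold change of each of the 10 genes on the log2(TPM + 1) scale with its standard error, for the 3 comparisons of genotypes. The dashed line is the median of all genes tested, and filled points are DEGs. Sfrp1 (2.36) and Wls (0.93) are the filled points, both in Cd38-/- against Cd38+/+, and Fzd1 and Fzd9 lie left of 0 between Cd38-/- and Cd38+/-.

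All 10 genes passed the filter on low values in each comparison. In Cd38-/- against Cd38+/+, 2 of 10 were DEGs (Sfrp1 and Wls, both higher), beside 8.28% of the 11722 genes tested, 6.42% higher and 1.86% lower. In Cd38+/- against Cd38+/+, 0 of 10 were DEGs, beside 0% of 11763 genes (limma), with 4 of 10 at an unadjusted p under 0.05 beside 13.5%. Between the mutant genotypes 0 of 10 were DEGs, beside 0.0346% of 11563 genes (limma), with 2 of 10 at an unadjusted p under 0.05 beside 11.2%. Groups did not overlap for 4 genes that were higher and 2 that were lower in Cd38+/- than in Cd38+/+, beside 15.5% and 6.94% of all genes. For Cd38-/- against Cd38+/+ these were 3 higher and 1 lower, beside 8.21% and 3.62%, and for Cd38-/- against Cd38+/- 2 lower, beside 2.88%. The median log2 fold change of the 10 genes was 0.40 in Cd38+/-, 0.24 in Cd38-/- and -0.09 between the mutant genotypes. Leaving out 1 library gave 0 to 5 DEGs among the 10 in Cd38-/- against Cd38+/+, the 5 being Sfrp1, Wls, Fzd9, Lrp6 and Tcf7l1 without Cd38+/+ replicate 2. That fit had 1931 DEGs among 11735 genes. The count of 0 came without Cd38-/- replicate 1 or 2, with 112 and 74 DEGs among 11699 genes. Since the genes were picked with these values known, nothing is read from the counts. The comparisons with Cd38+/+ share the same 3 libraries and are not independent of each other.

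The order of levels was similar at the top in every genotype. Ctnnb1, Wls and Dkk3 were the 3 most abundant of the 10 genes, with means of 205, 197 and 135 TPM in Cd38+/+, and neighbours in that order overlapped, except Wls and Ctnnb1 in Cd38-/-. The Frizzled genes followed, then Tcf7l1 and Lrp6. In Cd38+/+ Sfrp1 was last and its highest library, 2.36 TPM, was below the lowest of Axin2, 6.23 TPM. In the mutants Sfrp1 stood just above Axin2, the last of the 10, with overlapping ranges in Cd38-/- but not in Cd38+/-.

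Which of the 10 genes followed Sfrp1 most closely depended on the measure. Over the 12 libraries Pearson r of log2(TPM + 1) with Sfrp1 was 0.86 for Wls, 0.78 for Dkk3, 0.68 for Ctnnb1 and 0.62 for Lrp6. It was 0.20 for Fzd2, 0.15 for Fzd9, -0.03 for Fzd1, -0.13 for Axin2 and -0.44 for Tcf7l1. By Spearman rho the order turned, with 0.84 for Lrp6, 0.80 for Ctnnb1 and 0.78 for both Wls and Dkk3. With genotype means removed, Pearson r was 0.61 for Wls and 0.58 for Dkk3, while it was -0.09 for Lrp6 and 0.42 for Tcf7l1. Of 11817 genes, the 5 most alike to Sfrp1 were Mfsd6, Dnajc14, Fkbp9, Ftsj3 and Cggbp1, with Pearson r from 0.95 to 0.96, whereas Wls stood at place 312. Mfsd6, at 0.02 to 4.25 TPM in Cd38+/+ and 5.46 to 11.8 TPM in Cd38-/-, was the gene most alike. These values describe libraries that share genotype and detection.

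Among 102 further Wnt pathway genes, grouped by role, 70 passed the filter in Cd38-/- against Cd38+/+ and 4 rose while 0 fell, 5.71% of those tested beside 8.28% of all genes. The 4 were Kremen1, Wnt9a, Fzd6 and Vangl1, and each belongs to a different role. Wnt9a passed the filter through Cd38-/- alone, so a difference in its direction was built into its passing. At an unadjusted p under 0.05, 10 were higher (the 4 included) and 5 lower, beside 17.6% and 5.99% of all genes and 23.6% in either direction. The median log2 fold change of the 70 genes was 0.20, beside 0.15 for all genes. In Cd38+/- against Cd38+/+ 0 of 71 genes were DEGs, with 9 higher and 1 lower at an unadjusted p under 0.05 in limma, beside 9.5% and 3.99% of all genes, and their median log2 fold change was 0.39, beside 0.18. Between Cd38-/- and Cd38+/- 0 of 69 were DEGs, with 0 higher and 9 lower at that unadjusted p, beside 6.24% and 5% of all genes, and the median was -0.16, beside -0.02. Marker sums moved with this comparison. The 4 ependymal markers (Foxj1, Ccdc153, Tmem212 and Rarres2) summed to 3236 to 5070 TPM in Cd38-/- against 2571 to 3009 TPM in Cd38+/-, and to 2513 to 4761 TPM in Cd38+/+, with none at 0 in any library. The 9 astrocyte markers went the other way, 11639 to 14788 against 15428 to 17226 TPM, without overlap. Cd38+/- thus had the highest astrocyte sums as well as the highest means of Fzd1, Fzd2, Fzd9, Wnt7a and Wnt7b. The part of either cell type in these differences was not tested.

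Kremen1, a receptor for Dickkopf proteins that removes Lrp6 from the cell surface, was measured at 13.7, 21.2 and 10.5 TPM in Cd38+/+, at 44.0, 25.5 and 37.0 TPM in Cd38+/-, and at 27.2 to 45.1 TPM (median 33.7) in Cd38-/-. Every mutant library lay above every Cd38+/+ library. Its rise in Cd38-/- was 1.16 on the log2 scale (SE 0.25, limma q = 0.0202), and its difference in Cd38+/- was 1.198 (SE 0.36, limma q = 0.178). The call in Cd38-/- held in 15 of 23 alternatives and was lost without Cd38-/- replicate 1, 2, 5 or 6. Fzd6, a Frizzled associated with planar cell polarity, was measured at 18.9, 6.44 and 19.5 TPM in Cd38+/+, at 38.9, 20.7 and 24.7 TPM in Cd38+/-, and at 21.6 to 37.6 TPM (median 28.2) in Cd38-/-. It rose in Cd38-/- by 1.04 (SE 0.32, limma q = 0.0477), and differed by 0.96 (SE 0.47, limma q = 0.251) in Cd38+/-. Its call was the least stable of the 4: it held in 6 of 23 alternatives and was lost without Cd38+/+ replicate 2, where the log2 fold change was 0.56 (limma q = 0.0609), and without any 1 of the Cd38-/- libraries. Vangl1, a core protein of planar cell polarity, was measured at 61.0, 33.2 and 50.5 TPM in Cd38+/+, at 92.1, 60.7 and 64.7 TPM in Cd38+/-, and at 65.4 to 115 TPM (median 85.1) in Cd38-/-. It rose in Cd38-/- by 0.85 (SE 0.22, limma q = 0.0331), and its Cd38+/- range overlapped that of Cd38+/+. Without Cd38+/+ replicate 2 it differed by 0.61 (limma q = 0.0518) and was no longer a DEG. The call of Vangl1 was also lost without Cd38-/- replicate 1, 2, 5 or 6 and held in 13 of 23 alternatives.

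Wnt9a was listed at 0 in Cd38+/+ replicates 1 and 2 and at 4.40 TPM in replicate 3. It was measured at 5.54, 3.93 and 6.44 TPM in Cd38+/- and at 5.11 to 10.1 TPM (median 5.71) in Cd38-/-. Its log2 fold change in Cd38-/- was 2.08 (SE 0.55, limma q = 0.0334), which was 4.19 with a pseudocount of 0.1 and 0.89 with a pseudocount of 5. The call was lost without any 1 of the Cd38-/- libraries, and after quantile normalization (limma q = 0.115). Like Sfrp1, it passed the filter through the mutant libraries alone, so a difference was built into its passing. None of the 4 calls held without Cd38-/- replicate 1, 2, 5 or 6. The number of DEGs among all genes was 112, 74, 93 and 154 in these reduced fits, against 970 with every library.

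**Figure D4:**
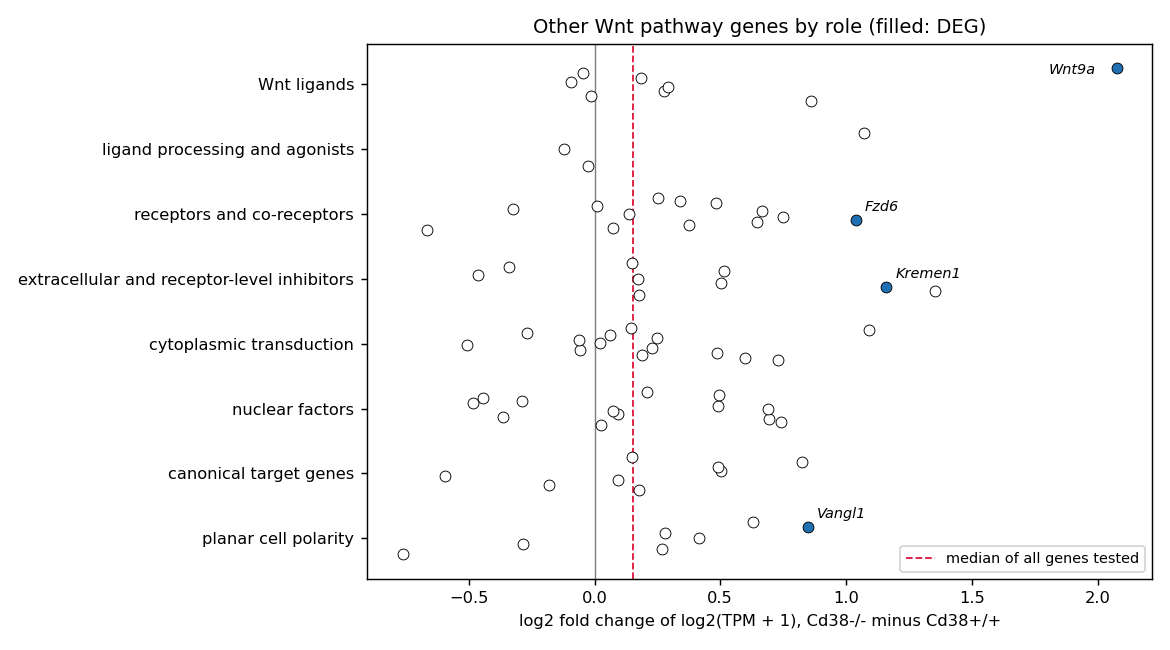
Log2 fold change on the log2(TPM + 1) scale, Cd38-/- minus Cd38+/+, of the other Wnt pathway genes that passed the filter, in rows by role. Each point is a gene, filled points are DEGs and the dashed line is the median of all genes tested, 0.15. Wnt9a (2.08), Kremen1 (1.16), Fzd6 (1.04) and Vangl1 (0.85) are the filled points, and each row spreads to both sides of the dashed line. Wnt9a passed the filter through Cd38-/- alone.

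The most abundant genes of each role gave the frame for these values. Among ligands, Wnt7b and Wnt7a, the most abundant, were measured at 167 ± 9.43 and 50.8 ± 7.88 TPM in Cd38+/+ (SD, n = 3), and at 211.5 ± 13.6 and 81.7 ± 7.79 TPM in Cd38+/- (SD, n = 3). In Cd38-/- they were at 163 ± 23.4 and 57.8 ± 8.21 TPM (SD, n = 6). For both, the Cd38+/- libraries lay above all libraries of the other genotypes, but no comparison passed the threshold, and the lowest q was that of Wnt7a between Cd38-/- and Cd38+/- at -0.50 (SE 0.13, limma q = 0.158). Wnt11 ranged from 1.34 to 44.2 TPM within Cd38+/+ and from 19.5 to 34.7 TPM in Cd38-/-. Porcn, which attaches the lipid to Wnt ligands, was at 53.1, 59.4 and 48.8 TPM in the means of Cd38+/+, Cd38+/- and Cd38-/-. Ndp, a ligand of Frizzled 4, was at 44.3, 52.1 and 43.6 TPM in the same order.

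Among receptors, Ryk was at 22.1 to 125 TPM in Cd38+/+ and at 57.3 to 70.5 TPM in Cd38-/-, so its spread within Cd38+/+ exceeded the difference between genotypes. In the cytoplasmic role, Csnk1a1, a kinase of beta-catenin, had means of 156, 148 and 151 TPM in Cd38+/+, Cd38+/- and Cd38-/-. Apc, the scaffold of the destruction complex, had a log2 fold change of 0.73 (SE 0.29, limma q = 0.0857) in Cd38-/-. Of the nuclear factors, Tcf7l2 gave -0.48 (SE 0.23, limma q = 0.13), Tle2 gave -0.44 (SE 0.18, limma q = 0.0955) and Tle1 gave -0.29 (SE 0.19, limma q = 0.209). None passed the threshold. Tle proteins are co-repressors that bind Tcf factors, and their genes had both signs, since Tle3 gave 0.49 (SE 0.46, limma q = 0.305) and Tle4 gave 0.21 (SE 0.18, limma q = 0.291). Tle3 and Tle4 were named after their values were seen.

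Canonical target genes had log2 fold changes of both signs. Tnfrsf19, a receptor of the tumour necrosis factor family, had means of 63.8, 119 and 106 TPM in Cd38+/+, Cd38+/- and Cd38-/-, a log2 fold change of 0.82 (SE 0.28, limma q = 0.0637) in Cd38-/-. Nkd1, a feedback inhibitor that binds Dishevelled, had means of 34.8, 18.8 and 22.5 TPM, a log2 fold change of -0.59 (SE 0.24, limma q = 0.0919). Apcdd1, a membrane inhibitor of the pathway, differed by 0.18 (SE 0.26, limma q = 0.399). Axin2 aside, 8 target genes were tested in Cd38-/-, and 6 had a positive log2 fold change, beside 64.3% of all genes. Axin2 itself had a log2 fold change of -0.35 (SE 0.41) there. Of the 8, 0 were DEGs in limma. At an unadjusted p under 0.05 in limma, 1 was higher and 1 lower, beside 17.6% and 5.99% of all genes. In planar cell polarity, Vangl2 was at 21.8 ± 13.5, 40.9 ± 3.39 and 30.4 ± 3.79 TPM (SD, n = 3, 3 and 6), and Celsr2 differed by -0.76 (SE 0.35, limma q = 0.118) in Cd38-/-.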

How the data were processed

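After rRNA depletion, the authors prepared cDNA with an ultra-low-input SMART-Seq kit, trimmed reads with Trim Galore 0.6.4, mapped them to mm10 with STAR 2.7.1a and estimated gene expression with RSEM 1.2.28 (versions per the submitters' processing notes). The deposited unit is TPM, 1 column per library, without pooling. Genotypes came from the labels, and the series description counts mice (3, 3 and 6) without saying which were littermates. log2(TPM + 1) of genes with a mean above 5 TPM in at least 1 compared genotype was fitted with limma 3.58.1 (eBayes with trend, R 4.3.3), on the compared genotypes only, and q-values followed Storey, with lambda from 0.05 to 0.95. The filter and thresholds are those of the study's methods, while a figure legend there writes 1.2 as a log2 fold change. Its model is not named. The study reported DEGs in Cd38+/- against Cd38+/+, where 0 were found here. The procedure was also run on simulated data, in which genes were drawn independently and without the lower detection of Cd38+/+. That run therefore does not bear on calls made under this difference of detection. Alternatives were pseudocounts of 0.1 and 5, other filters, adjustment, scalings, weights, a replicate block, length and GC trends, and each library left out.

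The 10 genes and all lists were chosen with earlier results of these data known. Genes named are the 10, other pathway genes that were DEGs, the 3 most abundant per role, the 5 most correlated with Sfrp1, Cd38 and summed marker lists. Exceptions are marked. Positions are from GENCODE vM21 and promoters from RefSeq. Figures used matplotlib 3.10.9.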

Additional observations from a re-analysis of the deposited data

Results flagged for a closer look

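Within the 6 Cd38-/- libraries, 14 genes (the 10 Wnt pathway genes and the 4 other DEGs) were examined for a single value far from the rest with Dixon's ratio, the gap to the nearest library over the whole range, against a critical value of 0.625. Chance flags about 1 gene in 20 this way. Sfrp1 was at 21.81 TPM in Cd38-/- replicate 2, against 6.54 to 11.0 TPM in the other 5, a ratio of 0.708. That library also had the highest choroid plexus marker sum of its group, 1876 TPM, and the highest Frzb, 125 TPM. Lrp6 was at 21.47 TPM in Cd38-/- replicate 1, against 15.9 to 17.8 TPM in the other 5, a ratio of 0.652.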

How the results depend on the processing

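The log2 fold change of Sfrp1 kept its sign under every alternative run against Cd38+/+. In Cd38+/- it was 3.51 with a pseudocount of 0.1, 1.33 with a pseudocount of 5 and 1.55 after quantile normalization, and in Cd38-/- it was 3.44, 1.27 and 1.31. It could not be fitted with a minimum of 1 TPM in every library, since Cd38+/+ replicate 2 had 0.07 TPM. Among the 102 other pathway genes, 4 were DEGs in Cd38-/- against Cd38+/+. This became 12 without the filter, 1 with Benjamini-Hochberg adjustment and 1 with a log2 fold threshold of 1.2. It became 0 with library quality weights and 8 with all 12 libraries in 1 fit. Beside these counts stood 2283 DEGs among 18906 genes, and 326, 337, 1 and 1822 among 11722, against 970 with the main settings. Leaving out 1 library gave 0 to 12: 8, 10 and 12 without Cd38+/+ replicates 1, 2 and 3, 2 without Cd38-/- replicate 3 or 4, and 0 without replicate 1, 2, 5 or 6. DEGs of all genes numbered 1829, 1931 and 3119 without Cd38+/+ replicates 1, 2 and 3. They numbered 573 and 798 without Cd38-/- replicates 3 and 4, and 112, 74, 93 and 154 without replicates 1, 2, 5 and 6. In Cd38+/- against Cd38+/+ the count of 0 became 4 without the filter and 9 with all 12 libraries in 1 fit. Of all genes, 663 of 17204 and 1464 of 11763 were DEGs in these fits. Sfrp1 and Wls were DEGs in Cd38+/- as well in the fit of all 12 libraries, beside 1464 DEGs among all genes. Between the mutant genotypes the count of 0 other pathway genes became 27 with library quality weights, and leaving out 1 library gave 0 to 1. The weighted fit had 3120 DEGs among 11563 genes, against 4 with the main settings. The count of 1 came without Cd38-/- replicate 4, where 93 of all genes were DEGs. The causes were not tested. DEGs of all genes in Cd38-/- numbered 970 (77.5% higher). The share that was higher was 59.9% under median-ratio scaling and 50.5% under quantile normalization.

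With the replicate number as a block, 0 of the other pathway genes and 0 of the 10 were DEGs in Cd38-/- against Cd38+/+, also with length and GC trends removed. Of all 11722 genes tested, 2 were DEGs in each of these fits. Deviations of same-numbered libraries correlated between -0.317 and 0.501, and not every library correlated best with its own number. Differently numbered mutant libraries correlated between -0.557 and 0.529, while pairs with a Cd38+/+ library reached at most 0.182. With so few libraries per genotype, these values cannot decide whether the numbers pair the libraries. Cd38-/- replicates 4 to 6 have no counterpart in Cd38+/+.

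Sfrp1 and Wls were also no DEGs with library quality weights. In Cd38-/- against Cd38+/+ that fit had 1 DEG among all 11722 genes tested. Further limits are the fewer genes detected in the 3 Cd38+/+ libraries, the unknown depth and a strand setting not given in the sources used here.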
